A study of Mus musculus with 16 samples.

Results

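The genes described here encode the ligands of the epidermal growth factor (EGF) receptor, 3 receptors of its family and 1 inhibitor that the receptor induces. They are the ligand genes Areg, Ereg, Hbegf, Tgfa, Btc and Epgn, the receptor genes Egfr, Erbb2 and Erbb3, and the inhibitor gene Errfi1. Members were chosen by gene name, and 9 of the 10 were found in this way among the 49315 genes of the table. No entry is named Areg. Its Ensembl identifier, ENSMUSG00000029378, stands in the table under the name Mcub, which a second entry also carries, so Areg was taken by identifier through GENCODE release M21. Ereg, Hbegf and Errfi1 were higher in injured than in intact mutant discs, the 3 receptors were not called in any comparison, and Areg, Btc and Epgn stayed at or under 1.26 TPM in all 16 libraries.

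RNA was sequenced from tail intervertebral discs, with 4 coccygeal discs of 1 mouse pooled in each library. The 4 groups were intact discs of wild-type mice (n = 3), injured discs of wild-type mice (n = 4), intact discs of Adam8EQ mutants (n = 4) and injured discs of Adam8EQ mutants (n = 5). Adam8 is the gene of a metalloprotease of the cell membrane, and what EQ changes in it is not described in the labels. The title of the series sets the mutants against DBA, an inbred strain. How the discs were injured, how long before collection, and the age of the mice are not given in the sources used here. Library names begin with A8 in mutants 1 and 2 of both treatments, with M in the remaining mutants and, for the wild type, with D throughout. What these names stand for is not stated, and in the comparisons of genotypes they cannot be told apart from genotype. All levels are TPM values, which are corrected for gene length and scaled to a total of 1000000 per library, so levels of different genes can be compared. Changes are differences of mean log2(TPM + 1), given with the standard error (SE), and on this scale the changes of weakly expressed genes come out too small. A gene was called when the Benjamini-Hochberg adjusted p of limma, over all 24188 genes tested, was under 0.05.

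The reads implied by the TPM values came to between 10195555 and 24832877 per library, with injured mutant mouse 1 the deepest. The tissue carried transcripts of disc cells: summed over 7 markers of notochordal nucleus pulposus cells, the level was 3331 to 6434 TPM in intact discs, and over 6 chondrocyte markers it was 10870 to 14370 TPM. Among the notochordal markers Shh was listed at 0 in every intact wild-type library. Injured libraries differed widely within their groups. Wild-type mice 3 and 4 had summed levels of 7 macrophage markers of 3734 and 2380 TPM, whereas injured wild-type mice 1 and 2 had 222.9 and 376 TPM. The latter values were closer to, but above, the 129.2 to 215.1 TPM of intact discs of either genotype. In injured mutants the macrophage sum ran from 737.3 to 7406 TPM and was highest in mouse 2. In these bulk samples a change in how many cells of a type were present and a change in RNA per cell cannot be told apart.

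The EGF receptor is a tyrosine kinase at the cell surface. Its ligands are made as membrane-anchored precursors, and metalloproteases such as ADAM17 and ADAM10 cut them loose so that they can reach receptors on the same or on neighbouring cells. Ligand binding pairs EGFR with itself or with ERBB2 or ERBB3, which starts the Ras-ERK relay and, through ERBB3, PI3-kinase. Active ERK induces transcription factors and also the genes of inhibitors, among them Errfi1 (also called Mig6), whose product binds the kinase domain of EGFR and closes a feedback loop. In cartilage, EGFR activity is known to act on the growth of chondrocytes and on matrix turnover.

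On GRCm38, Epgn (chromosome 5, 91027464 to 91035215), Ereg (91074622 to 91093646), Areg (91139599 to 91148432) and Btc (91357261 to 91402994) lie in 1 cluster, with Btc alone on the minus strand. Errfi1 lies on the plus strand of chromosome 4 (150853919 to 150868892), Tgfa on the plus strand of chromosome 6 (86195223 to 86275719), Egfr (16752203 to 16918158) and Erbb2 (98412470 to 98437716) on the plus strand of chromosome 11, and Erbb3 on the minus strand of chromosome 10 (128567523 to 128589652). Start-site windows in the RefSeq table for GRCm38.p6, each from 250 bases before to 50 bases after a start, were searched on both strands for a cyclic AMP response element (TGACGTCA), an AP-1 site (TGANTCA) and a TATA box (TATAAA). In the sequences shown, matches to these patterns did not overlap each other. Windows were read for Areg, Tgfa, Btc, Epgn, Egfr and Erbb2 (1 each) and for Errfi1 (2). No window was read for Ereg, Hbegf or Erbb3, so these genes were not searched. The response element occurred in the Areg window, 61 bases before the start, and in 1 Errfi1 window, 51 bases before it. Both of these windows also held a TATA box, 31 bases before the start in Areg and 28 in Errfi1. Of all 32851 windows, 1.79% held the response element, 7.81% the AP-1 pattern and 13.6% the TATA box. Epgn had a TATA box 86 bases before its start, and the AP-1 pattern was in none of the windows read. The windows of Tgfa, Btc, Egfr and Erbb2 and the other window of Errfi1 held none of the 3 patterns. A match of letters is a description of the sequence and not a measured binding site. The 250 bases before the 2 starts that hold the response element are shown because these windows share its letters, with the response element and the TATA box in capitals. They run 5′ to 3′ on the plus strand, at chr5:91139349-91139598 for Areg and at chr4:150854820-150855069 for Errfi1. The whole Errfi1 stretch lies inside the GENCODE gene, downstream of the gene's first base.
Areg: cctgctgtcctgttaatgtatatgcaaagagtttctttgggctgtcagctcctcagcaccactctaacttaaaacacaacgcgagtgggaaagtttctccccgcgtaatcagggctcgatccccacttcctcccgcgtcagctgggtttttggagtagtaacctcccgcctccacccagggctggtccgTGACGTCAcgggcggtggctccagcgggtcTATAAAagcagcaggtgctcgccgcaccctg
Errfi1: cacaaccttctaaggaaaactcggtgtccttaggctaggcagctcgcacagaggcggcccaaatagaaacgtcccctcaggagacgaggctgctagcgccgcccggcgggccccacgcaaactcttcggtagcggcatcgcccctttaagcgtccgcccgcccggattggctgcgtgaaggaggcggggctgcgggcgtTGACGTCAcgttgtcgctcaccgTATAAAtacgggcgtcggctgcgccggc

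Among the ligands, Ereg changed most. Ereg encodes epiregulin, a ligand of EGFR and ERBB4. In intact discs it stood at 3.04, 4.80 and 3.95 TPM in wild-type mice 1 to 3 and at 3.53, 3.28, 3.87 and 3.23 TPM in mutant mice 1 to 4. In injured mutants 1 to 5 it reached 111.2, 170.5, 130.5, 33.2 and 53.4 TPM, and every injured mutant was above every intact one. The change was 4.27 ± 1.02 (SE) on the log2 scale, with a limma adjusted p of 0.004073, the 49th largest by size among the 24188 genes. In injured wild-type mice 1 to 4 Ereg was at 3.80, 5.56, 176.6 and 146 TPM. The first pair lay at the intact level and the other two at the level of the highest mutants, so the intact and injured wild-type groups overlapped. The wild-type change of 2.63 ± 1.16 did not pass (limma adjusted p = 0.239). The group means, from low to high, were 3.47 ± 0.293 (SD, n = 4) in intact mutants, 3.93 ± 0.877 (n = 3) in intact wild-type mice, 83.0 ± 91.3 (n = 4) in injured wild-type mice and 99.8 ± 56.3 TPM (n = 5) in injured mutants. Neighbours in this order overlapped within each treatment and between intact and injured wild-type mice.

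Hbegf, on the minus strand of chromosome 18 (36504927 to 36515805), encodes heparin-binding EGF-like growth factor, which binds EGFR and ERBB4. It was at 28.2, 26.4 and 18.1 TPM in intact wild-type discs and at 26.9, 28.6, 27.3 and 22.5 TPM in intact mutant discs. Injured mutants 1 to 5 had 117.1, 57.8, 239 (mouse 3, the highest of all libraries), 92.3 and 182.7 TPM. All of these lay above the intact values, and the change was 2.18 ± 0.45 (SE) on the log2 scale with a limma adjusted p of 0.001915. Injured wild-type mice 1 to 4 had 21.5, 24.97, 76.3 and 64.5 TPM. Again only mice 3 and 4 stood above the intact libraries, and the change of 0.74 ± 0.51 did not pass (limma adjusted p = 0.4129). The order of the mutant mice was not that of Ereg: mouse 2 had the most Ereg and the least Hbegf of the 5, and mouse 5 had the second most Hbegf and the second least Ereg. The macrophage marker sum in injured mutants 1 to 5 was 1867, 7406, 1165, 2552 and 737.3 TPM. Mouse 2, with the highest sum, had the highest Ereg and the lowest Hbegf. Mouse 4, with the next highest sum, had the lowest Ereg of the 5 (33.2 TPM), so Ereg did not keep the order of this sum.

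Tgfa encodes transforming growth factor alpha, a ligand of EGFR alone. It was the most abundant ligand transcript in every intact library, at 57.3, 62.0 and 44.9 TPM in wild-type mice and 39.8, 41.3, 58.1 and 48.5 TPM in mutants. Injured wild-type mice had 58.1, 48.5, 39.5 and 46.8 TPM and injured mutants 87.7, 34.4, 68.2, 64.6 and 63.5 TPM. The injured groups spanned or overlapped the intact range. The change was 0.39 ± 0.23 in mutants (limma adjusted p = 0.1825) and -0.18 ± 0.26 for wild-type discs (limma adjusted p = 0.7226). Without injured mutant 2, whose 34.4 TPM was the lowest value of all 16 libraries, Tgfa passed the threshold in mutants.

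Areg encodes amphiregulin, another ligand of EGFR. It was listed at 0 in all 7 intact libraries, at 0, 0, 1.24 and 0.23 TPM in injured wild-type mice 1 to 4, and at 0.4261, 1.21, 1.26, 0 and 0 TPM in injured mutants 1 to 5. These levels amount to 1 to 5 implied reads in the libraries that had any. Areg entered the test only through 3 injured libraries and was not called in any comparison. Btc, the gene of betacellulin, never exceeded 0.6865 TPM (intact wild-type mouse 3, 8 implied reads) and was listed at 0 in 12 libraries. Epgn, the gene of epigen, ranged from 0 to 1.139 TPM, or 0 to 7 implied reads. Neither reached the filter of 1 TPM in 3 libraries, and differences in them were not detectable at this depth.

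**Figure D1:**
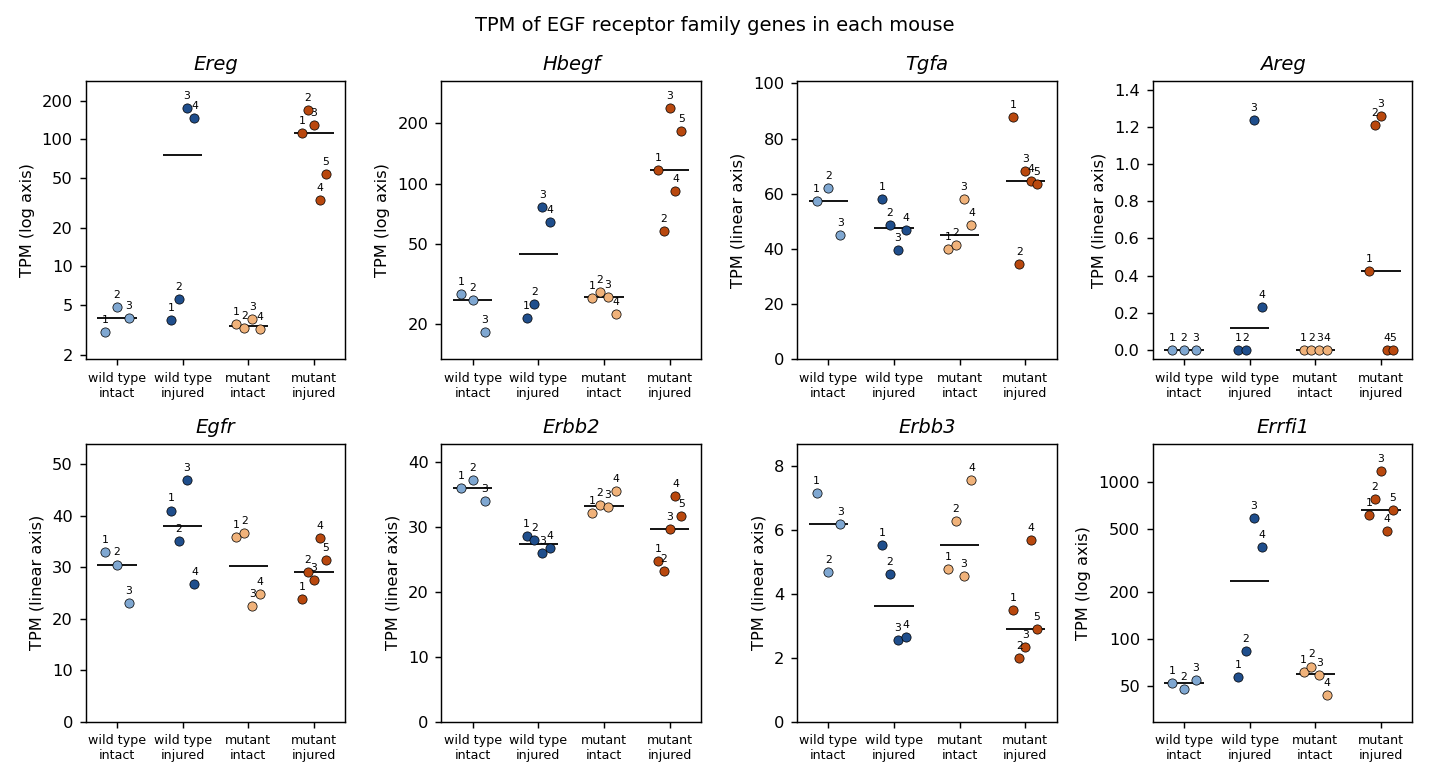
TPM in each mouse for the 8 tested genes, by group. Points are single libraries with the mouse number beside them, the line is the group median, and the axes of Ereg, Hbegf and Errfi1 are logarithmic. Injured wild-type mice 3 and 4 stand with the injured mutants in Ereg and, with mice 1 and 2 near the intact level, split the injured wild-type group, whereas Egfr shows overlapping groups.

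The makeup of the ligand transcripts is a description without a test. Summed over the 6 ligands, the level was 67.9 to 93.7 TPM in intact wild-type discs and 70.7 to 89.4 TPM in intact mutant discs. It was 83.5, 79.4, 294.3 and 258 TPM in injured wild-type mice 1 to 4 and 317.1, 265, 439.2, 190.1 and 299.6 TPM in injured mutants 1 to 5. In intact discs Tgfa made up 56.3% to 66.2% of that sum and Ereg 3.44% to 5.81%. In injured wild-type mice 3 and 4 Ereg made up 60% and 56.6%, and Tgfa 13.4% and 18.2%. Injured mutants differed from one another in which ligand led. Ereg led in mouse 2 with 64.3% of the sum, and Hbegf led in mouse 1 with 36.9%, in mouse 3 with 54.4%, in mouse 4 with 48.5% and in mouse 5 with 61%. In mouse 1 the 3 ligands were close, with Ereg at 35.1% and Tgfa at 27.7%. Set against the receptor, there were 1.97 to 3.99 TPM of ligand per TPM of Egfr in intact libraries, 2.03, 2.26, 6.27 and 9.64 in injured wild-type mice and 5.34 to 16 in injured mutants.

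**Figure D2:**
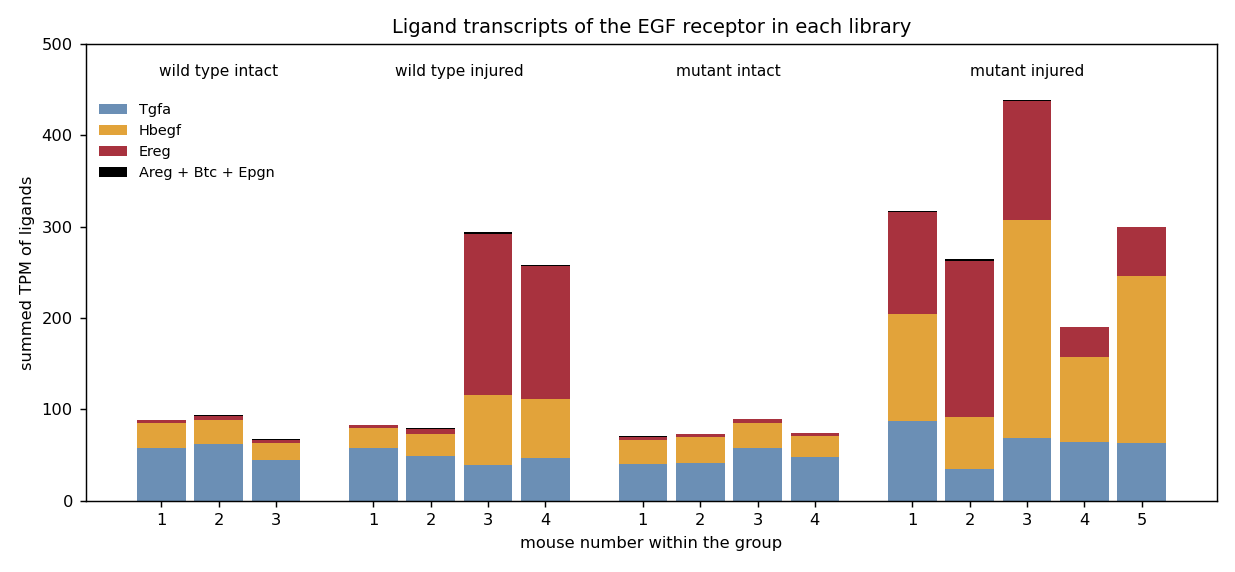
Summed TPM of the 6 ligands in each library, stacked by ligand, with the mouse number on the horizontal axis. Tgfa is the largest segment in all intact libraries, and the sum reaches 439.2 TPM in injured mutant 3, where Hbegf is the largest segment.

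None of the 3 receptor transcripts passed the test in any comparison. Egfr, the receptor of all 6 ligands, was at 33.03, 30.6 and 23.1 TPM in intact wild-type discs and at 35.9, 36.8, 22.4 and 24.8 TPM in intact mutant discs. Injured wild-type mice had 41.0, 35.1, 47.0 and 26.8 TPM, and injured mutants had 23.8, 29.2, 27.5, 35.6 and 31.4 TPM. All groups overlapped. The injury change in mutants was -0.0030 ± 0.20 (limma adjusted p = 0.9943). Its sign turned positive with median-of-ratios scaling and with quantile normalization, so it has no stable direction. By library name the mutants moved in opposite directions. A8 mutants had 35.9 and 36.8 TPM intact and 23.8 and 29.2 TPM injured. M mutants had 22.4 and 24.8 TPM intact and 27.5, 35.6 and 31.4 TPM injured. Egfr was called in neither. The wild-type change was 0.35 ± 0.22 (limma adjusted p = 0.3995).

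Erbb2 encodes the receptor without a known ligand that serves as a partner of the other receptors. Its 3 intact wild-type libraries had 35.9, 37.2 and 33.95 TPM, and the 4 injured ones had 28.6, 27.9, 25.9 and 26.7 TPM. These groups did not overlap, and the means were 35.7 ± 1.62 (SD, n = 3) and 27.3 ± 1.20 TPM (n = 4). The change of -0.38 ± 0.11 nonetheless missed the threshold over all genes (limma adjusted p = 0.169). Of all tested genes, 15.6% had intact and injured wild-type groups that did not overlap. The mutants had 32.1, 33.3, 32.96 and 35.4 TPM in intact discs and 24.7, 23.2, 29.7, 34.7 and 31.6 TPM in injured discs, which overlapped. Their change was -0.22 ± 0.10 (limma adjusted p = 0.1187). In 3 alternatives Erbb2 was called lower: without injured mutant 4 (-0.29, limma adjusted p = 0.03757), with the name prefix as a covariate (-0.25, limma adjusted p = 0.03735) and in A8 mutants alone (-0.43, limma adjusted p = 0.03931). In M mutants alone the change was -0.096 (limma adjusted p = 0.5964). Erbb2 shares exonic sequence with Mien1 on the opposite strand, whose mean level over the libraries was 59.3 TPM against 30.8 TPM for Erbb2, and the use of strand in counting is not given in the sources used here. Reads of these genes may therefore not have been told apart. Ereg and Tgfa have such partners as well, Gm19610 and Gm43917, with mean levels of 2.71 and 4.49 TPM.

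Erbb3 encodes the neuregulin receptor that lacks a strong kinase of its own and couples to PI3-kinase. It was the least abundant of the 3 receptors in every library. Intact discs had 7.17, 4.70 and 6.19 TPM in the wild type and 4.77, 6.27, 4.57 and 7.57 TPM in mutants. Injured discs had 5.53, 4.62, 2.55 and 2.65 TPM in the wild type and 3.50, 2.00, 2.34, 5.69 and 2.92 TPM in mutants. In mutants the change was -0.70 ± 0.26 with a limma adjusted p of 0.05554, just over the threshold, and it passed without injured mutant 4 and without injured wild-type mouse 1. For wild-type discs it was -0.57 ± 0.30 (limma adjusted p = 0.336). Markers of Schwann cells, keratinocytes and notochordal cells were read beside Erbb3. These bulk libraries do not show which cells carry it. Schwann cell markers summed to 18.4 to 23.5 TPM in intact discs, 23.2 to 80.2 TPM in injured wild-type discs and 22.3 to 347.6 TPM in injured mutant discs, and 0 of 6 were called in mutants. Keratinocyte markers summed to 18.5 to 26.5 TPM in intact discs, 7.97 to 23.0 TPM in injured wild-type discs and 12.8 to 15.3 TPM in injured mutant discs, with 1 of 3 tested lower in mutants and Krt5 listed at 0 in all intact libraries. Notochordal markers summed to 1457 to 5269 TPM in injured wild-type discs and 556 to 3350 TPM in injured mutant discs, with 3 of 6 tested lower in mutants. Their part in the Erbb3 values was not tested.

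Errfi1, the feedback inhibitor, had the highest level of all members in every injured library other than wild-type mouse 1, where Tgfa was slightly higher (58.1 against 56.6 TPM). Intact discs held 52.2, 47.7 and 54.4 TPM in the wild type and 60.9, 66.3, 58.4 and 43.7 TPM in mutants. Injured mutants 1 to 5 held 617.3, 786.6, 1187, 488.2 and 666.2 TPM, and the lowest of them was above every intact library. The change was 3.64 ± 0.59 on the log2 scale (limma adjusted p = 0.0006454), the smallest p among the members. Injured wild-type mice 1 to 4 held 56.6, 82.9, 589.4 and 387 TPM. All were above the 3 intact wild-type libraries, mouse 1 by a small margin, and mice 3 and 4 by much more. The change of 1.80 ± 0.67 did not pass (limma adjusted p = 0.1825). Without injured wild-type mouse 1 it was 2.36 ± 0.58, with a limma adjusted p of 0.04174, and the calls over all genes rose from 28 to 452. The group means were 51.4 ± 3.38 (SD, n = 3), 57.3 ± 9.66 (n = 4), 279 ± 255.6 (n = 4) and 749.1 ± 267.2 TPM (n = 5) for intact wild-type, intact mutant, injured wild-type and injured mutant discs. The injured groups overlapped, since wild-type mouse 3 exceeded mutant 4.

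Counted over the members, 3 of 8 tested were called for injury in mutants, all higher. Over all genes 30.8% were called in that comparison, 13.1% higher and 17.7% lower. The groups did not overlap for the same 3 members, against 27.2% of all genes. In the wild type 0 of 8 were called by limma, against 0.116% of all genes. At an unadjusted p under 0.05 there were 3 of 8 (Ereg, Erbb2 and Errfi1), against 17.2% of all genes. Errfi1 and Erbb2 were the members whose intact and injured wild-type groups did not overlap. Each of the mutant calls held when any 1 mouse was left out. Within mutants whose library names begin with A8 or M alone, 2 members were called in each: Erbb2 (lower) and Errfi1 in A8, and Hbegf and Errfi1 in M. Over all genes 14.8% were called in A8 and 3% in M. Ereg was called in neither (4.98 ± 1.85, limma adjusted p = 0.05971 for A8, and 3.79 ± 1.64, limma adjusted p = 0.1454 for M). Hbegf was not called in A8 (1.53 ± 0.68, limma adjusted p = 0.09972).

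**Figure D3:**
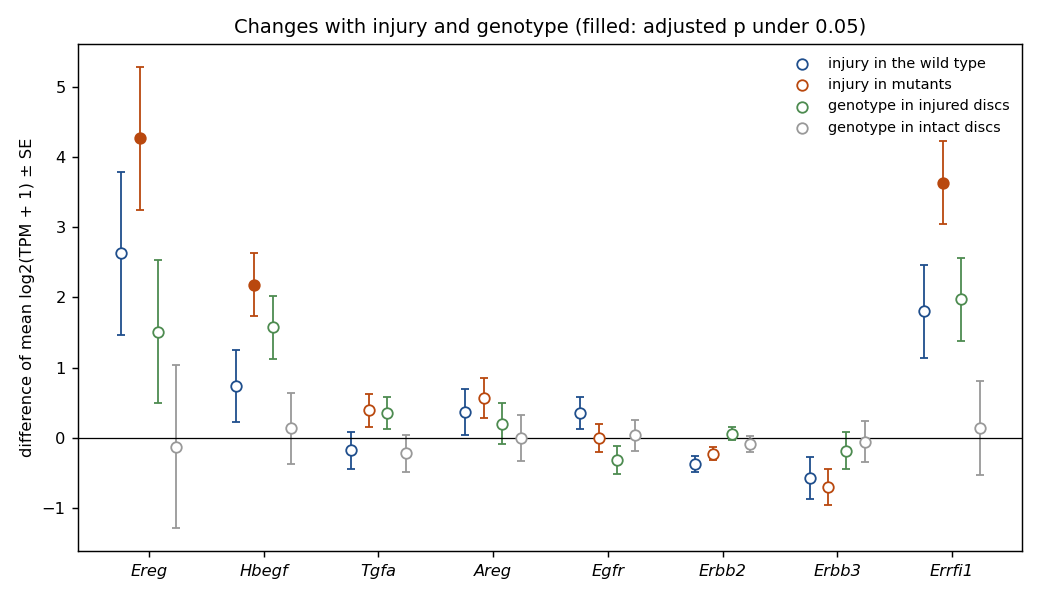
Differences of mean log2(TPM + 1) with their SE for the 8 tested genes in 4 comparisons. Filled points passed the limma adjusted p threshold of 0.05. The filled points are Ereg (4.27), Hbegf (2.18) and Errfi1 (3.64), all for injury in mutants.

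Summed macrophage markers were also higher in the injured libraries with higher Ereg, Hbegf and Errfi1. Neutrophil and endothelial sums were above the intact range in only some of these libraries. The values are given here. Of 7 macrophage markers, 6 were called higher in injured mutants, and Csf1r was not. Their sum was 141.2 to 168.5 TPM in intact and 222.9 to 3734 TPM in injured wild-type discs, and 129.2 to 215.1 and 737.3 to 7406 TPM in mutant discs. Neutrophil markers summed to 6.04 to 7.75 and 3.5 to 107.6 TPM in wild-type discs and to 1.66 to 3.14 and 5.91 to 632.1 TPM in mutant discs. Of the 5 neutrophil markers tested, 2 (S100a8 and S100a9) were called higher in mutants. Ly6g was listed at 0 in every intact library and Mpo in all but 2 injured mutant libraries. Elane went the other way, at 1.03 to 2.21 TPM in intact wild-type discs, 0 to 0.684 TPM in intact mutants and 0 in every injured mutant. Mast cell markers summed to 0.855 to 8.17 TPM in intact and 0.709 to 29.2 TPM in injured wild-type discs. In mutants they summed to 0.556 to 5.84 TPM intact and 1.10 to 4.61 TPM injured, and 0 of 3 tested were called. Injured wild-type mice 3 and 4, with the higher macrophage sums of 3734 and 2380 TPM, were also the mice with higher Ereg, Hbegf and Errfi1. Of 5 endothelial markers 0 were called in mutants. Their sum was 2.12 to 15.4 TPM in intact discs, 6.22, 12.2, 173.3 and 57.5 TPM in injured wild-type mice 1 to 4 and 9.38 to 61.7 TPM in injured mutants. Within the injured mutants none of Ereg, Hbegf and Errfi1 kept the order of the macrophage sum. Hbegf was lowest in mouse 2, where that sum was highest (7406 TPM). Ereg (33.2 TPM) and Errfi1 (488.2 TPM) were lowest in mouse 4, where it was next highest (2552 TPM). The part of these cells in the changes was not tested.

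Between genotypes, intact discs did not separate in any member. By limma 0 of 8 were called, 0 had an unadjusted p under 0.05, and the changes ran from -0.22 to 0.14, against 0.0165% of all genes called. The fit takes its spread from all groups together. For Ereg the SD was 0.877 and 0.293 TPM in intact wild-type and mutant discs, against 91.3 and 56.3 TPM in injured ones. Small intact differences in such genes could thus be missed, though no member was called with only the groups compared either. In injured discs 0 of 8 were called by limma, against 0.918% of all genes. At an unadjusted p under 0.05 there were 2 of 8, against 20.3% of all genes. Hbegf was 1.57 ± 0.45 higher in mutants on the log2 scale (limma adjusted p = 0.07256), and Errfi1 1.97 ± 0.59 (limma adjusted p = 0.07761). Ereg differed by 1.51 ± 1.02 (limma adjusted p = 0.371), Tgfa by 0.35 ± 0.23 (limma adjusted p = 0.3763) and Egfr by -0.32 ± 0.20 (limma adjusted p = 0.3527). The injured groups overlapped in every member. These values depend on single mice. Without injured wild-type mouse 3, Hbegf (1.87, limma adjusted p = 0.01744) and Errfi1 (2.54, limma adjusted p = 0.009257) were called, and without injured mutant 2 Hbegf alone was (1.84, limma adjusted p = 0.02507). The calls over all genes rose as well, from 222 to 2253 without the former mouse and to 675 without the latter. Other settings went the opposite way. Without injured wild-type mouse 1 or 2 the calls over all genes fell to 11 and 7, and no member was called. With only the groups compared 5 genes were called, none of them a member. The difference between the injury changes of the genotypes was tested as an interaction. By limma 0 of 8 members and 0% of all genes were called. At an unadjusted p under 0.05 there were 2 of 8 members, against 8.18% of all genes. The interaction was 1.44 ± 0.68 for Hbegf (limma adjusted p = 0.5751), 1.84 ± 0.89 for Errfi1 (limma adjusted p = 0.5817), 1.64 ± 1.54 for Ereg (limma adjusted p = 0.7833) and 0.57 ± 0.35 for Tgfa (limma adjusted p = 0.6725). The injury changes of the genotypes are therefore not shown to differ.

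The other genes of the family moved unevenly in injured mutants. Of 6 further ligands and receptors, 5 were tested, 1 was called higher and 2 lower, with a median change of -0.45 beside -0.08 over all genes. The shares over all genes were 13.1% higher and 17.7% lower. Nrg1, the gene of neuregulin 1, a ligand of ERBB3 and ERBB4, rose by 0.90 ± 0.27 (limma adjusted p = 0.02574) from a low level, at 0.08 to 0.21 TPM in intact and 0.33 to 2.64 TPM in injured mutants. The Nrg1 call was lost without intact mutant 1, intact mutant 2 or injured mutant 2 (limma adjusted p = 0.05762, 0.05956 and 0.05522) and in M mutants alone (limma adjusted p = 0.3559), where none of the 5 was called. Erbb4, the receptor that also binds Hbegf and Ereg products, fell by 1.88 ± 0.38 (limma adjusted p = 0.002437), from 2.87 to 7.74 TPM in intact mutants to 0.13 to 1.64 TPM in injured ones. Nrg2, another neuregulin gene, fell by 1.09 ± 0.28 (limma adjusted p = 0.009147). The changes of Egf itself (-0.45 ± 0.17) and Nrg4 (0.39 ± 0.17) did not pass, and Nrg3 was too low to test.

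Of 10 genes of ligand shedding and trafficking, 9 were tested, 6 rose in mutants and 0 fell, and the median change was 0.97. Among all genes 13.1% were called higher and 17.7% lower, and the median was -0.08. With the mutants named A8 or M alone, in fewer libraries, 4 and 1 were called higher, against 6.65% and 1.32% of all genes. Adam12 and Adam8 had the largest changes, 4.08 ± 0.48 and 4.56 ± 0.89. Adam8 was at 0.96 to 2.97 TPM in intact mutants and at 68.3, 264.1, 39.4, 48.3 and 16.2 TPM in injured mutants 1 to 5. In the wild type it was at 1.24 to 1.69 TPM intact and at 3.52, 5.59, 66.3 and 54.9 TPM injured, a change of 2.87 ± 1.02 that did not pass. Since the EQ allele is not described, these Adam8 levels check no label. Adam17, which encodes the main sheddase of Tgfa and Hbegf products, rose by 1.06 ± 0.21 (limma adjusted p = 0.002052). Its partner gene Rhbdf2, whose product guides ADAM17 to the cell surface, rose by 1.16 ± 0.34 (limma adjusted p = 0.01401). Adam9 rose by 0.97 and Adam10 by 0.50, whereas Adam15 (0.02), Rhbdf1 (0.09) and Cnih1 (0.14) were not called and Rhbdl2 was too low to test. In the wild type Adam12 was at 0.55 to 1.6 TPM intact and at 6.18, 13.3, 49.5 and 23.1 TPM in injured mice 1 to 4. It was called (3.28 ± 0.54, limma adjusted p = 0.02672) and no other gene of the 5 lists was. This call was lost without any 1 of the 3 intact wild-type mice, without injured wild-type mouse 4 and without injured mutant 5 (limma adjusted p for Adam12 from 0.05333 to 0.1209). It was also lost with only the groups compared (limma adjusted p = 0.1967). With the replicate block it was lost as well (limma adjusted p = 0.1227), but mouse numbers do not pair the samples.

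Among 12 genes of brakes on the receptor other than Errfi1, 11 were tested, 4 were called higher and 2 lower in mutants, with a median of 0.15. Of all genes, 13.1% were called higher and 17.7% lower. Ubash3b (2.65 ± 0.53), which encodes a phosphatase of tyrosine kinase signalling, had the largest change. Ptprj, a receptor phosphatase gene, rose by 0.81, and Cbl, whose product tags activated EGFR for breakdown, rose by 0.59. Lrig3, whose product belongs to a family that restrains EGFR, fell by 1.08. Of 19 genes of the adaptors and the Ras-ERK relay, 2 were called higher and 4 lower, with a median of 0.07. These relay counts lay near the 13.1% higher and 17.7% lower of all genes. Stat3, the gene of a transcription factor, rose by 0.78 and Nras, a Ras gene, by 0.54, while Plcg1, a phospholipase gene, fell by 0.73 and Gab1, an adaptor gene, by 0.63. With median-of-ratios scaling the relay split was 6 higher and 3 lower, and that of all genes was 3913 higher and 3602 lower.

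Of 20 transcripts that ERK signalling is known to induce, 11 were called higher and 1 lower in mutants, and the median change was 1.03. Beside this, 13.1% of all genes were called higher and 17.7% lower, with a median of -0.08. With the mutants named A8 or M alone, 5 and 3 were called higher, against 6.65% and 1.32% of all genes. Fosl1, the gene of an AP-1 subunit, rose by 4.34 ± 0.81, Ier3, an early response gene, by 2.99 ± 0.56, Spry2, a feedback inhibitor of receptor signalling, by 2.88 ± 0.53 and Egr2, a zinc finger factor gene, by 2.19 ± 0.42. Etv4 fell by 1.0 ± 0.25. Egr1 (0.41 ± 0.60) and Fos (0.20 ± 1.29) were not called. Fos had 1079 TPM in intact wild-type mouse 1 and 392.7 and 380.8 TPM in intact mutants 1 and 2, against 20.9 to 37.8 TPM in the remaining intact libraries. These transcripts are also known to respond to other receptors and to stress. In the wild type none of the 20 was called, and the median was 0.46. There were 6 at an unadjusted p under 0.05, against 17.2% of all genes. In the 2 genotype comparisons and the interaction limma called none of the list genes. At an unadjusted p under 0.05 there were 10 of the 20 between genotypes in injured discs, where 16 were above 0 and the median was 0.78. Over all genes in that comparison 20.3% had such a p, 39.1% were above 0 and the median was -0.09. Without injured wild-type mouse 3, limma called 7 of the 20 higher in that comparison, and the calls over all genes rose from 222 to 2253, of which 657 were higher (2.72% of the genes tested). Without injured wild-type mouse 1 or 2 the calls over all genes fell to 11 and 7. The lists were chosen with earlier results of these data known, and genes of a list are read in the same mice. List counts and medians here and above are therefore descriptions and not tests of a list.

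**Figure D4:**
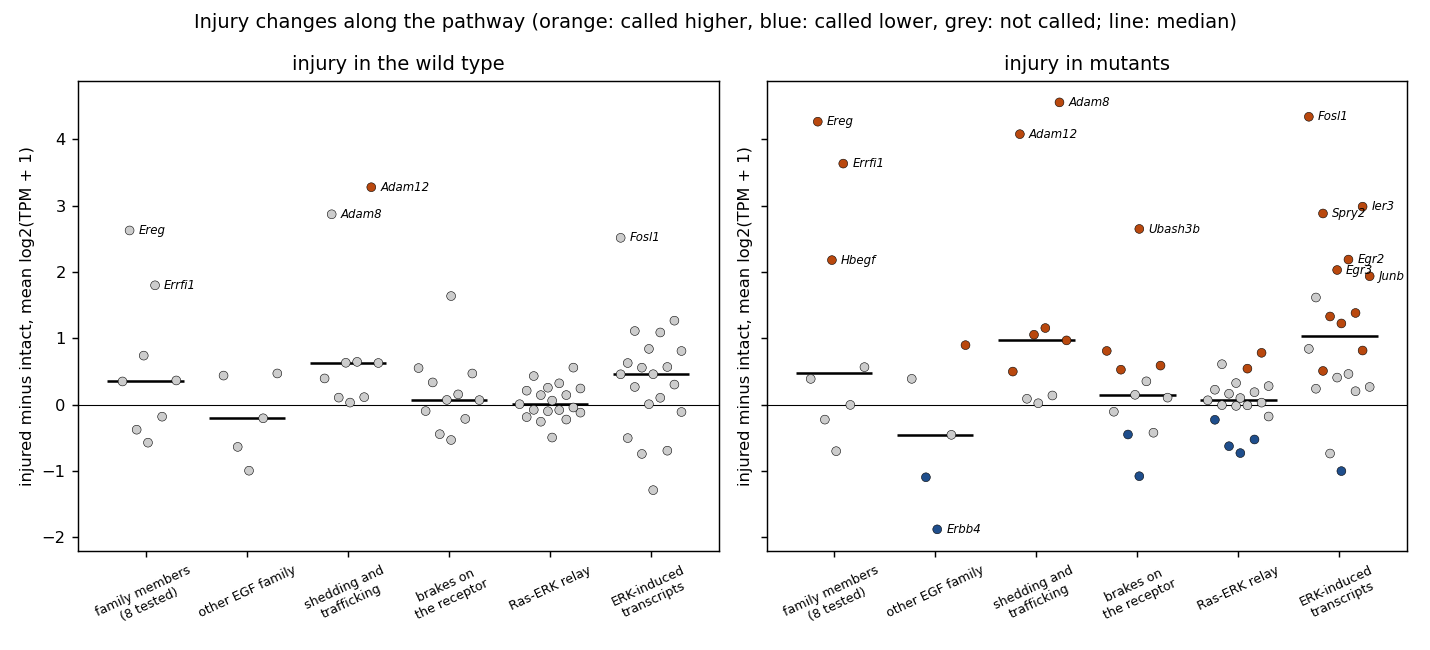
Injury changes of the 8 tested members and of 5 lists of other pathway genes, in the wild type (left) and in mutants (right), on the vertical axis as differences of mean log2(TPM + 1). Each point is a gene, orange or blue where limma called it higher or lower, and lines are list medians. In mutants the medians of shedding genes (0.97) and ERK-induced transcripts (1.03) lie above the others.

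The genes whose pattern was most like that of a called member were found by the root mean square difference of centred log2(TPM + 1) over the 16 libraries, among 11936 named genes whose mean level was 5 TPM or more. For Ereg they were Lif (0.49), a cytokine gene, Fosl1 (0.51) and Plau (0.60), the gene of urokinase, where the standard deviation of Ereg itself was 2.34. For Hbegf they were Slc22a4 (0.27), a transporter gene, Gadd45g (0.36), a stress response gene, and Rcan1 (0.38), a calcineurin regulator gene, with a standard deviation of 1.16. For Errfi1 they were Plaur (0.34), the gene of the urokinase receptor, Hmga1b (0.37), and Cd44 (0.40), the gene of a hyaluronan receptor, with a standard deviation of 1.81. Hmga1b is a near-identical copy of Hmga1, so its reads are uncertain.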

How the data were processed

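Bulk RNA of tail discs was sequenced in 16 libraries. Per the labels' protocols, extraction used Trizol, FastSelect removed ribosomal RNA and libraries were built with NEBNext Ultra II, although the molecule field reads polyA RNA. The authors deposited 1 table of TPM values. The submitters' processing notes name bcl2fastq 2.20 and GRCm38. The aligner, the counter, its use of strand and the annotation are not given in the sources used here. Groups came from the sample titles. Identifiers were matched to GENCODE release M21 (48970 of 49315, 99.3%).

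The 24188 genes that reached 1 TPM in 3 or more libraries were tested with limma 3.58.1 in R 4.3.3 (lmFit, eBayes with trend) on log2(TPM + 1), with 1 mean per group in 1 fit and Benjamini-Hochberg adjustment over all tested genes. Figures and promoter searches used Python 3.11.15. The fit was tested on simulated data. Depth was approximated from TPM steps and union exon length, where 94.1% to 95% of low values came out within 0.05 of a whole number. Errors are between mice, each library 1 mouse.

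The members and lists were chosen with earlier results of these data known. Named genes were the members, the other EGF family and shedding genes, up to 4 called genes with the largest changes per other list, and the 3 genes most like each called member. Etv4, Egr1 and Fos were added after their values were seen. Cell type markers were read in the same table. Alternatives were pseudocount 0.1, no filter, a mean of 5 TPM, other scalings, no trend, sample weights, smaller fits, a replicate block, name prefixes and leaving out each mouse. Same-numbered mice are different animals, so the block was run only as an alternative and was not part of the main fit.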

Additional observations from a re-analysis of the deposited data

Results flagged for a closer look

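Within groups of 4 or 5 mice, 28 sets of member values were examined for a value far from the others, and chance would pick out about 1 in 20. One was: Btc in injured mutant 5, at 0.0693 TPM (1 implied read) with the other injured mutants at 0, a gap equal to 1 of the range. With all other values at 0 this ratio is 1 whatever the remaining value, so the flag rests on 1 read and shows nothing more.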

How the results depend on the processing

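The count of members called for injury in mutants was 3, and 5 with limma sample weights, which added Tgfa and Erbb3. It was 4 without the trend (adding Erbb3) and with the name prefix as covariate (adding Erbb2), and 2 with only M mutants (Hbegf and Errfi1) or only A8 mutants (Erbb2 and Errfi1). Leaving out 1 mouse gave 3 to 5, with 5 without injured mutant 4 (adding Erbb2 and Erbb3). Of all genes 30.8% were called in mutants, 35.4% with sample weights, 30% without the trend and 32.5% with the prefix. It was 3% in M mutants, 14.8% in A8 mutants and 22% to 33% without 1 mouse. In the wild type the count of members was 0, and 0 to 1 without 1 mouse. Between genotypes in injured discs the count was 0, 2 with sample weights (Hbegf and Errfi1), and 0 to 2 without 1 mouse. Of all genes 0.918% were called there, 4.42% with sample weights and 0.0289% to 9.31% without 1 mouse. In intact discs and for the interaction the count of members was 0 in every alternative. The cause was not tested.

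Mouse numbers do not pair the samples: over 21 same-numbered pairs across groups, correlations of deviations ran from -0.2172 to 0.1508 (median -0.028), with 1 over 0.1. With the replicate block the members called were 3 in mutants, 0 in the wild type and 0 between genotypes. Over all genes the block gave 6191 calls against 7438 in mutants, 5 against 28 in the wild type and 11 against 222 between genotypes in injured discs. Of the 28 wild-type calls 26 were higher, against 27 of 35 with quantile normalization. Of the 222 between genotypes in injured discs 46 were higher, against 76 of 160 with median-of-ratios scaling. The median mutant change over all genes was -0.077, and -0.0022 with that scaling.

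Reversed signs belonged to small changes without a call. Egfr for injury in mutants (-0.0030) was 0.084 under median-of-ratios scaling, 0.038 after quantile normalization, 0.00018 with sample weights, 0.011 with the name prefix as covariate, 0.40 in M mutants alone and -0.13 to 0.10 without 1 mouse. Egfr between genotypes in intact discs (0.034) was -0.019 with sample weights, -0.038 with the prefix, -0.27 in M mutants and -0.11 to 0.16 without 1 mouse. In that comparison the prefix gave 0.033 for Erbb2 and 0.042 for Erbb3, M mutants gave -0.023 for Errfi1, and leaving out 1 mouse gave -0.20 to 0.064 for Erbb3 and -0.054 to 0.25 for Hbegf. Between genotypes in injured discs Erbb2 was -0.18 in A8 mutants and -0.0083 to 0.13 without 1 mouse, and Erbb3 was 0.026 with quantile normalization. For the interaction Egfr was 0.046 in M mutants, Erbb2 -0.057 in A8 mutants, and Erbb3 0.041 with quantile normalization and -0.30 to 0.033 without 1 mouse.

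Depth limits Areg, Btc and Epgn, at 8 or fewer implied reads per library.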
